A study of Mus musculus with 10 samples.

Results

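The clustered histone genes are the members of the Hist1, Hist2, Hist3 and Hist4 gene clusters, taken here as every row of the deposited table whose GENCODE M21 symbol (mouse build GRCm38) starts with Hist1h, Hist2h, Hist3h or Hist4h. Of the 70 such genes in the annotation, 25 were among the 14450 genes of the table and 45 were not. The RNA came from mature B cells of the bone marrow of Chat-GFP mice at steady state, in which a green fluorescent reporter marks cells that use Chat, the choline acetyltransferase gene needed to make acetylcholine. Cells were sorted by FACS into Chat+ and Chat- fractions, with 5 libraries of each, all from this reporter strain, and the question is how the transcripts of the fractions differ. The labels give neither the age nor the sex of the mice and do not say whether libraries came from separate animals, so every interval and adjusted p measures only the spread between these libraries.

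Histones package DNA: H2A, H2B, H3 and H4 form the core of the nucleosome, and H1 binds the linker DNA between nucleosomes. Most clustered histone genes lack introns, are transcribed mainly in S phase, when new DNA must be packaged, and give messages that end in a conserved stem-loop in place of a poly(A) tail. That stem-loop is bound by the protein SLBP, which guides processing, translation and decay of the message. Some clustered genes also give longer, polyadenylated messages in cells that have left the cycle, and replacement histones from genes outside the clusters are made throughout it. Whether the libraries were made from poly(A)-selected or ribosome-depleted RNA is not given in the sources used here, and this choice sets how much of the stem-loop form can be seen.

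The stem-loop is shown for 6 members because most clustered histone genes give messages that end in it. It lies at a different distance from the annotated end in each. The capitals mark the 16-base match, with 5 bases on either side. The pattern was searched on the sense strand of the GENCODE M21 transcripts and had the fixed runs GG, CTTTT, AG and CC, in that order, with any 2 bases between the first pair of runs, any 1 base between CTTTT and AG, and any 2 bases before CC.
Hist1h1c: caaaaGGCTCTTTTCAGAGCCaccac
Hist3h2a: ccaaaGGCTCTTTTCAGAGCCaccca
Hist1h2ao: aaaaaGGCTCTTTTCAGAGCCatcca
Hist2h2aa2: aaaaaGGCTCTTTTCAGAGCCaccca
Hist1h4i: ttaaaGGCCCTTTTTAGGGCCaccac
Hist4h4: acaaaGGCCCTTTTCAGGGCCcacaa

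In Hist1h2ao and Hist2h2aa2 the annotated transcript stopped 31 and 35 bases after the stem-loop, while in Hist1h4i it ran on for 330 bases, in Hist1h1c for 840, in Hist3h2a for 1643 and in Hist4h4 for 2445. The letters were found in 17 of the 25 genes in the table and in 27 of the 45 others, against 28 of 21834 protein-coding genes outside the family (0.128%). The search stopped at the annotated transcript end, so a gene without a match is not shown to lack the stem-loop. Among such genes, the annotated transcript had 312 bases in Hist1h4k and 411 in Hist1h3i. The commonest form, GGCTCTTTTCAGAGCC, was carried by 26 genes, 12 of them in the table. All 6 genes with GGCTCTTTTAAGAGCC were outside the table, whereas both genes with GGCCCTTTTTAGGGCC were in it.

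The 25 genes in the table had longer annotated transcripts than the 45 that were not. The median length of the longest transcript was 1138 bases (312 to 7425) against 508 bases (381 to 2482). An annotated transcript of at least 1000 bases was found for 14 of 25 genes in the table and for 4 of the 45 others, Hist1h2ac, Hist1h2br, Hist1h3d and Hist1h3f. The polyadenylation signal AATAAA or ATTAAA lay within the last 50 bases of a transcript, on the sense strand, in 10 of 25 against 7 of 45, and in 78% of protein-coding genes outside the family. These shares describe which genes were listed and were not tested.

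**Figure D1:**
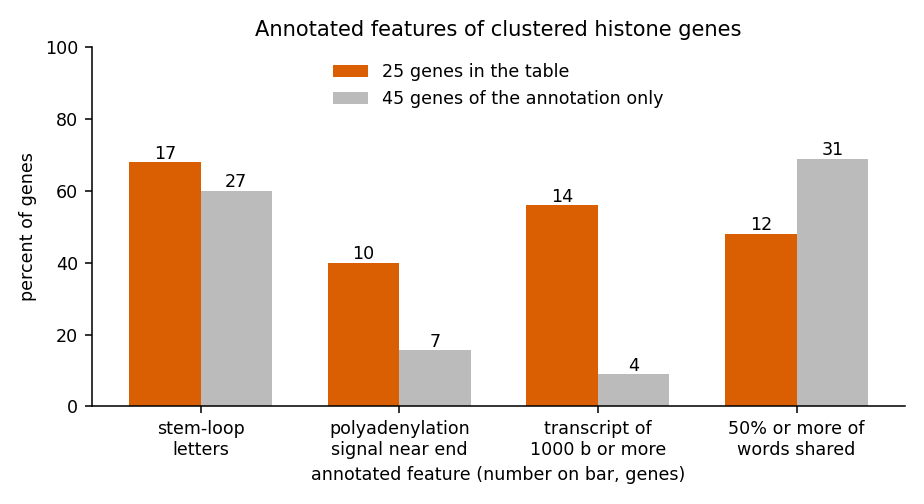
Percent of clustered histone genes (y axis) with each annotated feature (x axis), for the 25 genes in the table (orange) and the 45 genes of the annotation only (grey), with the number of genes on each bar. Transcripts of at least 1000 bases stand at 14 of 25 against 4 of 45.

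Near-identical copies are common in the family, and they limit what a single gene's value means. At least 50% of the 31-base words of a gene's transcripts also occurred in other genes for 12 of the 25 members. Hist2h2aa2 shared 100% with its mirror copy Hist2h2aa1, Hist1h2bq 98.3% with Hist1h2br, Hist1h2ao 93.8% with Hist1h2ap, Hist1h2aj 93.5% with Hist1h2ai and Hist1h4m 91.7% with Hist1h4n. Each of these partners was outside the table, and how the reads of such pairs were divided is set by the authors' quantification. Hist2h3c1 shared 100% of its words with the locus Gm20634, and Hist3h2a 32.1% with Trim17. The members with the least shared sequence were close to unique, at 2.3% for Hist2h4, 2.8% for Hist2h2be, 3.5% for Hist1h1d, 11.4% for Hist1h1c and 11.5% for Hist4h4.

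The libraries held an estimated 21530000 to 30060000 reads. Chat, the gene behind the sort, was higher in every Chat+ library (31.1 to 111 CPM, the deposited count per 1e+06 counts) than in any Chat- library (1.17 to 19.7 CPM), and the 8 B cell identity genes summed to 17170 to 20100 CPM in all 10 libraries. One library, Chat- replicate 4, stood apart, with 1213 genes at 0 against 62 to 682 in the other 9 and 11.9% mitochondrial transcripts against 2.27% to 3.85%. Of the T and NK cell markers, 1 of 8 was listed (Cd4, under 1.5 CPM). Markers of plasma cells (7 of 8 listed) summed to 407 to 683 CPM in Chat+ cells against 353 to 430 CPM in Chat-, precursor B cell markers (6 of 10) to 15.9 to 40.3 against 39.2 to 49.2 CPM, and erythroid markers (11 of 11) to 571 to 936 against 490 to 1149 CPM. Chat+ replicate 5 had the highest plasma cell sum (683 CPM) and the lowest precursor B cell sum (15.9 CPM) of the 10 libraries. It also had the lowest Chat of the Chat+ libraries (31.1 CPM). Macrophage markers (9 of 10) summed to 37.4 to 61.5 against 29.5 to 127 CPM and stromal and endothelial markers (9 of 10) to 279 to 388 against 293 to 501 CPM, with the highest value of each in Chat- replicate 4. Neutrophil markers (10 of 10) summed to 21.8 to 140.5 against 46.1 to 115 CPM. The part of these cells in the histone values was not tested.

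None of the 25 clustered histone genes passed the test of Chat+ against Chat- cells run across all genes (limma, Benjamini-Hochberg adjusted p of 0.9976 or above for each). The background was as low: 0.00692% of the 14450 genes passed, which is 1 gene. Chat, the gene behind the sort, did not pass either (log2 fold change 3.64 ± 0.59, SE, limma adjusted p = 0.087). At an unadjusted p under 0.05 there were 3 members with higher values in Chat+ (Hist1h2bq, Hist1h3i and Hist1h1e) and 0 with lower ones. Of all genes 4.51% reached that level, 3.49% with higher and 1.01% with lower values in Chat+. The libraries of the 2 groups overlapped for all 25 members, while they did not for 1.43% of all genes (1.12% higher and 0.304% lower in Chat+). The fitted log2 fold change was above 0 for 16 members and below 0 for 9, with a median of 0.19, while 57% of all genes lay above 0 with a median of 0.04. In RNA from many cells, a smaller share of cells that use a gene and less of its RNA per cell cannot be told apart.

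The median rested in part on single libraries. It was 0.03 without Chat- replicate 4, with 13 of 25 members above 0, and 0.34 without Chat- replicate 1. Fold changes are on the log2 scale of CPM plus an offset of 0.115 CPM. For low genes their size depends on that offset. With libraries at 0, the fit can exceed the ratio of the group means or differ from it in sign. Hist1h2bf had a log2 fold change of 0.97 with a ratio of means, Chat+ over Chat-, of 1.105. Hist1h2al had -0.40 with a ratio of 1.44.

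The members were low and uneven in level. Only 4 had a mean of at least 10 CPM over the 10 libraries (Hist3h2a, Hist2h2be, Hist1h2ao and Hist1h1c), 11 had a mean under 2 CPM, and 12 were listed at 0 in at least 1 library. The 5 highest held 65% of the summed level. Chat- replicate 4 had the most members at 0, 6 of 25, against 0 to 4 in each other library. The median coefficient of variation within a group was 47.1% in Chat+ and 56.4% in Chat-. The 95% interval stayed inside a 2-fold change in both directions for 4 members, Hist3h2a, Hist2h2be, Hist1h2bc and Hist1h1c.

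**Figure D2:**
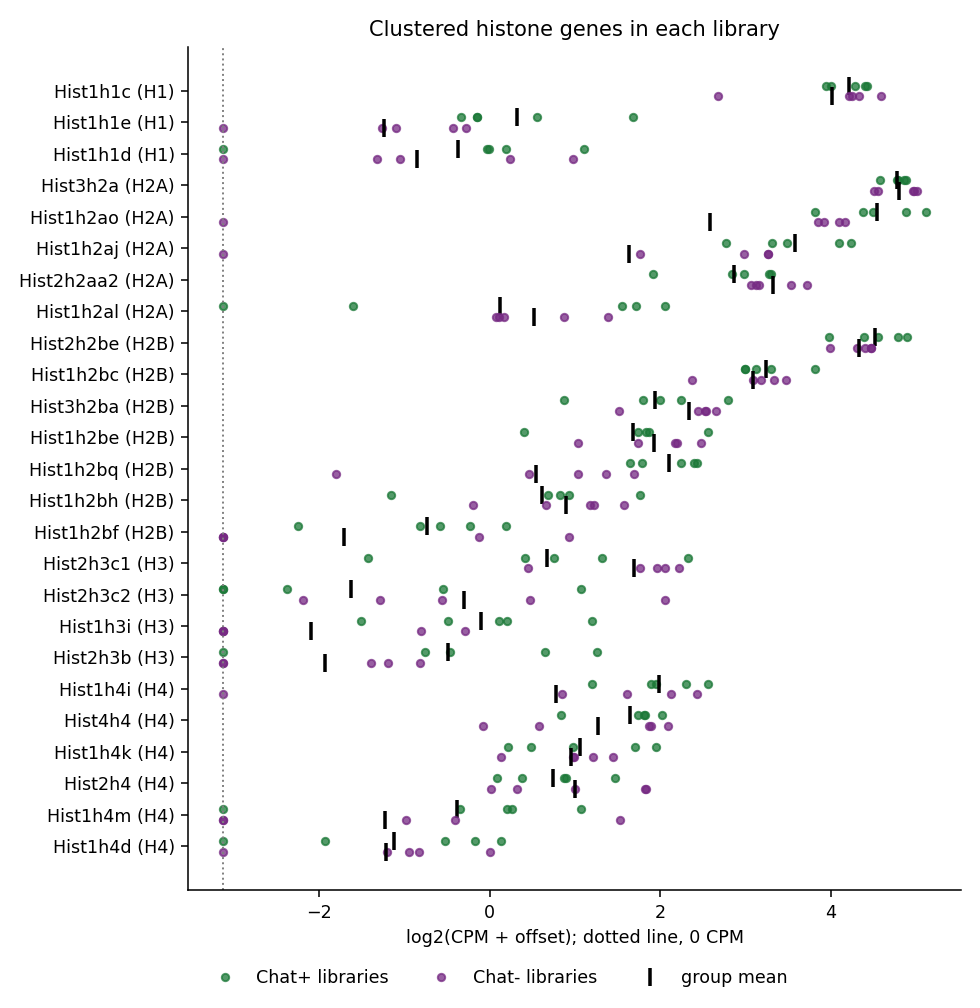
Level of each of the 25 members in each library on the log2(CPM + offset) scale (x axis), by gene and histone class (y axis), with Chat+ libraries in green, Chat- libraries in purple and a black bar at each group mean. The 2 groups overlap for every member, and the dotted line marks a value listed at 0 CPM.

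Linker histone H1 was represented by 3 of 6 annotated genes. Hist1h1c, the gene of histone H1.2, lies on chromosome 13 at 23738808 to 23740367 on the plus strand (a single annotated transcript of 1560 bases that spans the gene, with no intron). It had 21.4, 20.97, 15.2, 19.3 and 15.9 CPM in Chat+ replicates 1 to 5 and 24.0, 19.9, 18.9, 6.27 and 18.4 CPM in Chat- replicates 1 to 5. All libraries but Chat- replicate 4 lay close together, and the groups overlapped. The log2 fold change was 0.20 ± 0.31 (SE; 95% interval -0.48 to 0.88, limma adjusted p = 0.999), and without Chat- replicate 4 its sign turned, to -0.13.

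Hist1h1e, the gene of histone H1.4, had 0.789, 1.36, 0.68, 0.788 and 3.10 CPM in Chat+ cells against 0.708, 0.352, 0.304, 0 and 0.629 CPM in Chat-. Chat+ replicate 5 was the highest library, and the lowest Chat+ library, replicate 3, was the only one of its group below the highest Chat- library. The log2 fold change was 1.56 ± 0.67 (SE; limma adjusted p = 0.999), and 0.68 with an offset of 1 CPM. Its transcript shares 24.5% of its words with Hist1h2be, whose annotated transcripts overlap it. Hist1h1d, the gene of histone H1.3, averaged 0.961 CPM in Chat+ cells against 0.714 CPM in Chat-, with a value of 0 in 2 libraries.

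Histone H2A had 5 of 20 annotated genes in the table. Hist3h2a (chromosome 11, 58954685 to 58956830, plus strand, a transcript of 2146 bases) had the highest mean of all members and the most even level. It had 29.0, 23.8, 27.4, 29.3 and 27.5 CPM in Chat+ cells against 32.1, 31.02, 31.4, 23.4 and 22.7 CPM in Chat-. Chat- replicates 4 and 5 lay below all Chat+ libraries and the other 3 Chat- libraries above them. The fold difference was held between 0.795 and 1.22 (95% interval; log2 fold change -0.02 ± 0.14, SE, limma adjusted p = 0.999).

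Hist1h2aj, annotated as an unprocessed pseudogene on chromosome 13 at 21721457 to 21721808, and the protein-coding Hist1h2ao, at 21810465 to 21810944 on the same chromosome, had the widest H2A differences. Hist1h2aj had 11.1, 17.1, 18.8, 9.80 and 6.73 CPM in Chat+ cells against 9.53, 9.48, 3.27, 0 and 7.77 CPM in Chat-. Hist1h2ao, given in full after its values were seen, had 29.5, 20.6, 34.6, 22.4 and 13.9 CPM in Chat+ cells against 0, 14.3, 15.0, 16.99 and 17.8 CPM in Chat-. In both genes Chat+ replicate 5 was the lowest Chat+ library and lay inside the Chat- range, and 1 Chat- library was listed at 0, a different one in each.

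The fitted log2 fold changes were 1.95 ± 1.03 (SE) for Hist1h2aj and 1.95 ± 1.17 (SE) for Hist1h2ao, with limma adjusted p = 0.999 for each. Each size depended on the library at 0. It was 0.77 for Hist1h2aj without Chat- replicate 4 and 0.53 for Hist1h2ao without Chat- replicate 1. With an offset of 1 CPM the values were 1.29 and 1.32, and with library quality weights Hist1h2aj was at 0.93. Hist2h2aa2 went the other way, at 7.57 ± 2.46 CPM in Chat+ cells against 10.1 ± 2.09 CPM in Chat- (SD, n = 5), with a log2 fold change of -0.46 (95% interval -1.08 to 0.16). The pseudogene Hist1h2al averaged 1.74 CPM.

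Histone H2B had 7 of 19 annotated genes in the table. Hist2h2be (chromosome 3, 96221119 to 96223738, plus strand, a transcript of 2620 bases) had 27.6, 20.8, 29.6, 23.4 and 15.7 CPM in Chat+ cells against 22.1, 22.1, 21, 19.7 and 15.7 CPM in Chat-. Chat+ replicate 5 and Chat- replicate 5 were the lowest library of each group, at the same level. The log2 fold change was 0.19 ± 0.19 (SE; 95% interval -0.21 to 0.60, limma adjusted p = 0.999).

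Hist1h2bq (chromosome 13, 21806612 to 21810197, minus strand) had the smallest p of all members. It had 5.13, 3.004, 3.33, 4.62 and 5.30 CPM in Chat+ cells against 0.171, 1.26, 1.93, 2.46 and 3.10 CPM in Chat-. Only Chat- replicate 5, the highest of its group, reached into the Chat+ range. The log2 fold change was 1.55 ± 0.59 (SE; 95% interval 0.27 to 2.84, limma adjusted p = 0.9976), and it was 0.96 without Chat- replicate 1 and 1.02 with an offset of 1 CPM.

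Hist1h2bc averaged 9.14 CPM and differed little (log2 fold change 0.15, 95% interval -0.41 to 0.71). Hist3h2ba had 4.08 ± 1.87 CPM in Chat+ cells against 5.12 ± 1.36 CPM in Chat-, and Hist1h2be 3.45 ± 1.62 against 3.90 ± 1.35 CPM (SD, n = 5). Hist1h2bh and Hist1h2bf averaged 1.804 and 0.546 CPM.

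Hist1h2bq and Hist1h2ao lie head to head, with 267 bases between their annotated starts, and both had their lowest value of all 10 libraries in Chat- replicate 1. Hist1h2bq shares 98.3% of its words with Hist1h2br and Hist1h2ao 93.8% with Hist1h2ap, both outside the table. Whether the low values reflect how reads were divided between such copies was not tested. The sequence is shown because one stretch lies upstream of both Hist1h2bq and Hist1h2ao. It is taken from RefSeq, where Hist1h2ao is named H2ac23 and starts further upstream than in GENCODE, and its first bases lie within Hist1h2bq. It runs from 250 bases before to 50 bases after the RefSeq start, at chr13:21810117-21810416 of GRCm38.p6 on the plus strand, and the capitals mark CCAAT or its reverse complement ATTGG.
H2ac23: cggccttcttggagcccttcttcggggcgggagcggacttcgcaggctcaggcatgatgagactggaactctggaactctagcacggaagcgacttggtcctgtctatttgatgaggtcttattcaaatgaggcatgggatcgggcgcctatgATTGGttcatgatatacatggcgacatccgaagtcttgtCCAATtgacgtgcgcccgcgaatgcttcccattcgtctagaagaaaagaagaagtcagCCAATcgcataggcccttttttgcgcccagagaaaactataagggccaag

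CCAAT, a motif common in histone promoters, occurred in this window on both strands, and 37.4% of 32851 RefSeq promoter windows of the same length held it on either strand. TATAAA, searched on both strands, was not among these letters and was held by 13.6% of the windows. Hist1h4m, downstream of Hist1h2ao on the same strand (21811746 to 21812147), was also listed at 0 in Chat- replicate 1, and in Chat- replicate 2 and Chat+ replicate 4. It shares 91.7% of its words with Hist1h4n, which is outside the table.

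Histone H3 had 4 of 12 annotated genes in the table, all low. Hist2h3c1 (chromosome 3, 96246685 to 96248509, plus strand) had 4.89, 1.22, 0.256, 2.38 and 1.58 CPM in Chat+ cells against 3.27, 4.04, 3.79, 4.55 and 1.25 CPM in Chat-. The groups overlapped through Chat+ replicate 1, the highest library of all, and Chat- replicate 5, the lowest of its group. Every other Chat+ library lay below every other Chat- library. The log2 fold change was -1.01 ± 0.63 (SE; limma adjusted p = 0.999), and it was -0.49 without Chat+ replicate 3 and -0.63 with an offset of 1 CPM.

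Hist1h3i (chromosome 13, 21782960 to 21783370, minus strand) had 0.961, 0.237, 2.19, 0.597 and 1.04 CPM in Chat+ cells against 0, 0.702, 0.456, 0 and 0 CPM in Chat-. The 3 zeros were all in Chat- libraries, and 2 of the 5 Chat+ libraries lay below the highest Chat- one. Hist1h3i shares 85.3% of its words with Hist1h3h, which is outside the table. The log2 fold change was 1.997 ± 0.80 (SE; limma adjusted p = 0.999), but 0.98 with library quality weights and 0.67 with an offset of 1 CPM. Hist2h3b and Hist2h3c2 averaged 0.587 and 0.89 CPM, with log2 fold changes of 1.44 and -1.32, opposite in sign within the same cluster.

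Histone H4 had 6 of 13 annotated genes in the table. Hist1h4i (chromosome 13, 22040636 to 22041362, minus strand) had both the highest mean and the smallest p of the class. It had 3.75, 5.80, 2.18, 3.58 and 4.82 CPM in Chat+ cells against 5.26, 2.93, 4.25, 0 and 1.68 CPM in Chat-. Apart from the value of 0 in Chat- replicate 4 the ranges were alike, and the log2 fold change of 1.20 ± 0.88 (SE; limma adjusted p = 0.999) became 0.23 without that library, 0.22 with library quality weights and 0.60 with an offset of 1 CPM.

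Hist4h4, the single gene of its cluster (chromosome 6, 136801553 to 136804415, minus strand), had 3.13 ± 0.86 CPM in Chat+ cells against 2.70 ± 1.49 CPM in Chat- (SD, n = 5). Hist1h4k had 2.21 ± 1.18 against 1.91 ± 0.60 CPM and Hist2h4 1.65 ± 0.66 against 2.15 ± 1.22 CPM. Hist1h4m and Hist1h4d averaged 0.857 and 0.455 CPM.

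**Figure D3:**
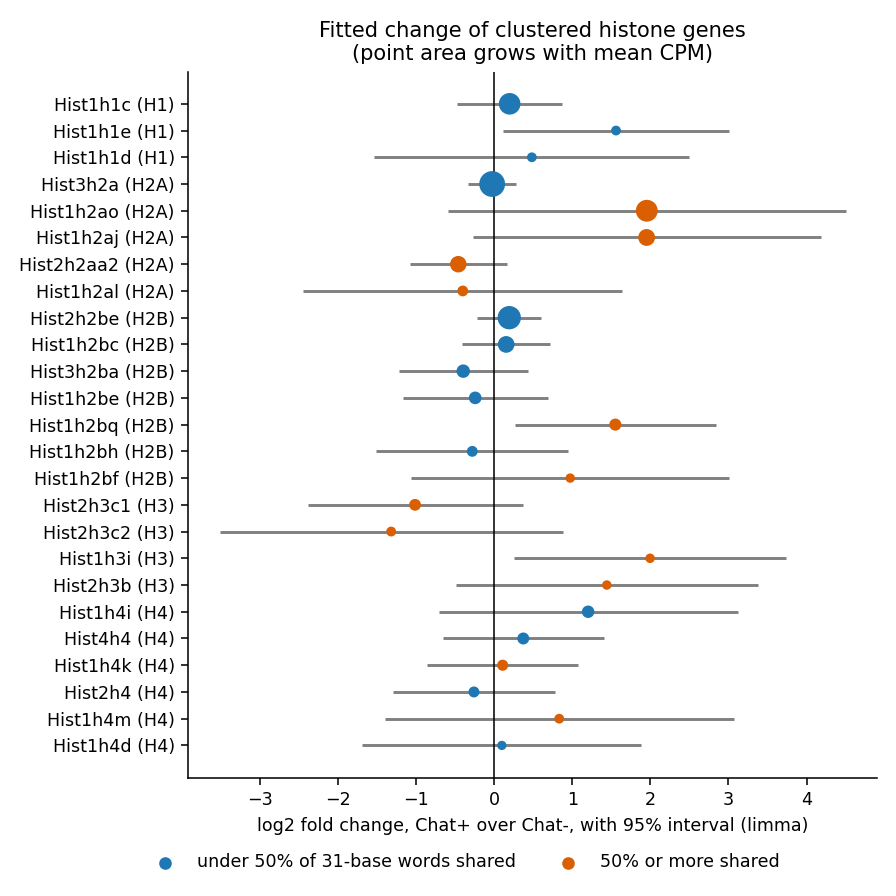
Fitted log2 fold change of Chat+ over Chat- with its 95% interval (x axis) for each of the 25 members (y axis), with point area growing with mean CPM and orange for members that share at least 50% of their 31-base words. The intervals of Hist3h2a, Hist2h2be, Hist1h2bc and Hist1h1c lie inside a 2-fold change in both directions and hold 0.

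Summed over the 25 members, the family made up 186, 149, 171, 156 and 133 CPM in Chat+ replicates 1 to 5 and 142, 145, 143, 115 and 129 CPM in Chat- replicates 1 to 5. All Chat+ libraries but replicate 5 lay above all Chat- libraries, and replicate 5 lay among them. The means were 159 ± 20.6 CPM in Chat+ cells against 135 ± 12.8 CPM in Chat- (SD, n = 5), a ratio of 1.18. Of the difference of 24.0 CPM, 75.2% lay in Hist1h2aj and Hist1h2ao. These share 93.5% and 93.8% of their words with copies outside the table. The remaining 23 members summed to 122 ± 14.2 CPM in Chat+ cells against 116 ± 14.7 CPM in Chat-.

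By class, H2A summed to 73.9 ± 11.0 CPM in Chat+ cells against 58.4 ± 7.19 CPM in Chat-, H2B to 47.1 ± 9.10 against 42.0 ± 3.86 CPM and H1 to 20.9 ± 2.94 against 18.6 ± 6.25 CPM (SD, n = 5). H4 summed to 12.5 ± 1.91 against 10.8 ± 3.09 CPM and H3 to 4.56 ± 1.67 against 5.07 ± 2.36 CPM. The groups overlapped in every class. Members with a transcript of at least 1000 bases (14 genes) summed to 98.6 ± 11.1 CPM in Chat+ cells against 93.0 ± 13.6 CPM in Chat-, and the 11 others to 60.3 ± 11.7 against 41.9 ± 7.34 CPM. The second set holds both Hist1h2aj and Hist1h2ao.

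By the cluster named in the symbol, the fitted change was above 0 for 13 of the 16 listed Hist1 genes on chromosome 13 (median log2 fold change 0.66). It was above 0 for 2 of 6 of the Hist2 cluster on chromosome 3 (median -0.36) and for 0 of 2 of the Hist3 pair on chromosome 11 (median -0.21). The Hist1 count and sums hold the pseudogene Hist1h2al, which lies apart from the others at 51202727 to 51203065 on chromosome 13. The Hist1 genes summed to 88.1 ± 13.4 against 61.8 ± 8.09 CPM, Chat+ first (SD, n = 5), with Chat+ libraries from 70.96 to 101.7 and Chat- libraries from 47.6 to 67.4 CPM. These 2 ranges do not overlap, while 0 of the 16 genes had groups that did not overlap on their own, and the sum was picked out after its values were seen and was not tested. The Hist2 genes summed to 36.2 ± 6.35 against 37.2 ± 3.42 CPM and the Hist3 pair to 31.5 ± 3.40 against 33.2 ± 5.52 CPM. The separation of the Hist1 sums was lost without Hist1h2aj and Hist1h2ao, which belong to that cluster. The other 14 genes ranged from 48.0 to 61.2 CPM in Chat+ cells and from 30.6 to 53.0 CPM in Chat- cells, with means of 51.2 ± 5.67 and 42.9 ± 8.27 CPM (SD, n = 5). The difference between clusters was not tested.

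**Figure D4:**
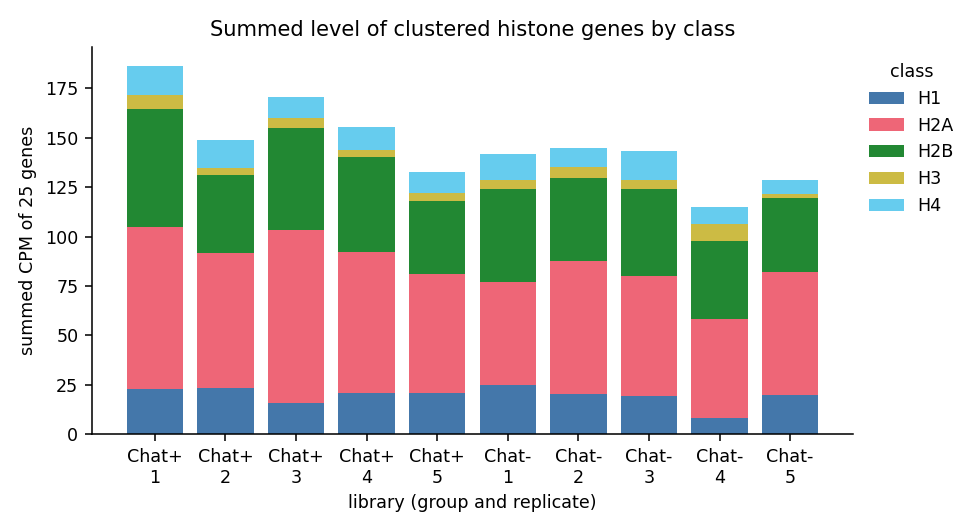
Summed CPM of the 25 members (y axis) in each of the 10 libraries (x axis), stacked by histone class. The bars range from 133 to 186 CPM in Chat+ cells against from 115 to 145 CPM in Chat-, and most of their height is H2A and H2B.

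Per length of the longest annotated transcript, the order of the members changed, and short members moved ahead of longer ones. Hist1h2ao stood at 38.6 CPM per kilobase and Hist1h2aj at 26.6, ahead of Hist2h2aa2 at 16.7, Hist3h2a at 12.9 and Hist1h1c at 11.5. The 10 listed replacement histone genes ranged on the same scale from 1.23 (H1fx) to 472 CPM per kilobase (H3f3a), and 5 of them, H1fx, H1f0, Cenpa, H2afj and H2afv, lay below Hist1h2ao. H3f3a and H3f3b, which both encode H3.3, had 472 and 270 CPM per kilobase, and H2afz, which encodes H2A.Z, had 83.9. The 25 clustered genes together reached 162 CPM per kilobase and the 10 replacement genes 1008, most of it from H3f3a and H3f3b.

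Of the 10 listed replacement histone genes, 0 passed the test and 2 had an unadjusted p under 0.05, both higher in Chat+. Over all genes, 0.00692% passed and 4.51% reached that unadjusted level, 3.49% with higher values in Chat+. The median log2 fold change of the 10 genes was 0.24, but 0.03 without Chat- replicate 4. H2afx, whose product is phosphorylated at DNA breaks, had 88.4, 85.5, 75.9, 67.5 and 44.9 CPM in Chat+ cells against 54.9, 55.4, 43.6, 49.4 and 46.3 CPM in Chat-. Chat+ replicate 5 again lay inside the Chat- range, while the other 4 Chat+ libraries lay above it (log2 fold change 0.50 ± 0.17, SE, limma adjusted p = 0.837). H1fx, a linker histone gene, had 2.01 ± 0.42 against 0.996 ± 0.44 CPM, H2afz 98.0 ± 15.5 against 81.4 ± 10.4 CPM and H1f0 5.53 ± 1.56 against 4.25 ± 2.13 CPM (SD, n = 5). H3f3a had 1288 ± 127 against 1394 ± 101 CPM, and H2afv 59.6 ± 15.8 against 49.9 ± 18.5 CPM.

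Genes that make, process and handle histones outside the clusters were also below the threshold. Of 26 listed genes of histone transcription and 3′ processing, 0 passed, with a median log2 fold change of 0.06, but -0.009 without Chat- replicate 4. Slbp, which encodes the stem-loop binding protein, had 96.5 ± 11.5 CPM in Chat+ cells against 85.7 ± 16.3 CPM in Chat- (SD, n = 5). Snrpe, a small nuclear ribonucleoprotein gene, had 76.5 ± 4.29 against 61.9 ± 15.0 CPM, Cpsf3, the endonuclease gene of the cleavage complex, 129 ± 14.1 against 116 ± 15.6 CPM, and Lsm10, part of the U7 particle that cuts histone messages, 11.2 ± 3.61 against 12.9 ± 1.26 CPM. Of 24 listed histone chaperone genes, 0 passed, with a median of 0.09, but 0.01 without Chat- replicate 4. Chaf1b, a subunit of the assembly factor that loads new H3 and H4 behind the fork, had 7.86 ± 1.17 against 5.85 ± 1.51 CPM, and Nap1l1, an H2A and H2B chaperone, 742 ± 33.9 against 662 ± 68.2 CPM.

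Cell cycle genes are set beside the family because histone messages are known to follow S phase. Of 42 genes of DNA replication and S phase, 0 passed the adjusted threshold. An unadjusted p under 0.05 was reached by 9, all on the Chat+ side. Over all genes, 0.00692% passed and 4.51% reached that unadjusted level, 3.49% with higher values in Chat+. The list's median change was 0.23 (log2), but 0.14 without Chat- replicate 4. Rrm2, the ribonucleotide reductase subunit that limits nucleotide supply, had 46.2, 33.8, 56.6, 32.9 and 27.1 CPM in Chat+ cells against 18.3, 19.2, 14.9, 17.1 and 19.6 CPM in Chat-. Its groups did not overlap, although limma left it above the threshold (log2 fold change 1.09 ± 0.19, SE, adjusted p = 0.114). Ccne1, the gene of cyclin E1, had 11.7 ± 1.34 against 6.13 ± 2.10 CPM, and Uhrf1 39.1 ± 7.97 against 24.5 ± 5.62 CPM (SD, n = 5).

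Of 30 genes of mitosis and the spindle, 0 passed and 24 had an unadjusted p under 0.05, all on the Chat+ side. Over all genes, 0.00692% passed and 4.51% reached that unadjusted level, 3.49% with higher values in Chat+. The list's median change was 0.998 (log2), and 0.96 without Chat- replicate 4. Mki67, the gene of the Ki-67 antigen, had 142, 120, 124, 105 and 65.4 CPM in Chat+ cells against 55.5, 54.2, 36.2, 38.6 and 44.6 CPM in Chat- (log2 fold change 1.25 ± 0.20, SE, limma adjusted p = 0.087). Chat+ replicate 5 was the lowest Chat+ library for Mki67 and Rrm2 as well as for Hist1h2aj, Hist1h2ao and the summed clustered histone level. Member by member it had no such place: it was the lowest Chat+ library for 7 of the 25 members and the highest for 5, among them Hist1h2bq and Hist1h1e. With library quality weights 14 of the 30 mitosis genes and 3 of the 42 replication genes passed, against 0 of the 25 clustered histone genes and 0.727% of all genes. Without Chat+ replicate 5 the counts were 5, 0 and 0, with 0.0415% of all genes. At these background shares a count of 0 among 25 genes is near the background. The difference between these lists was not tested.

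**Figure D5:**
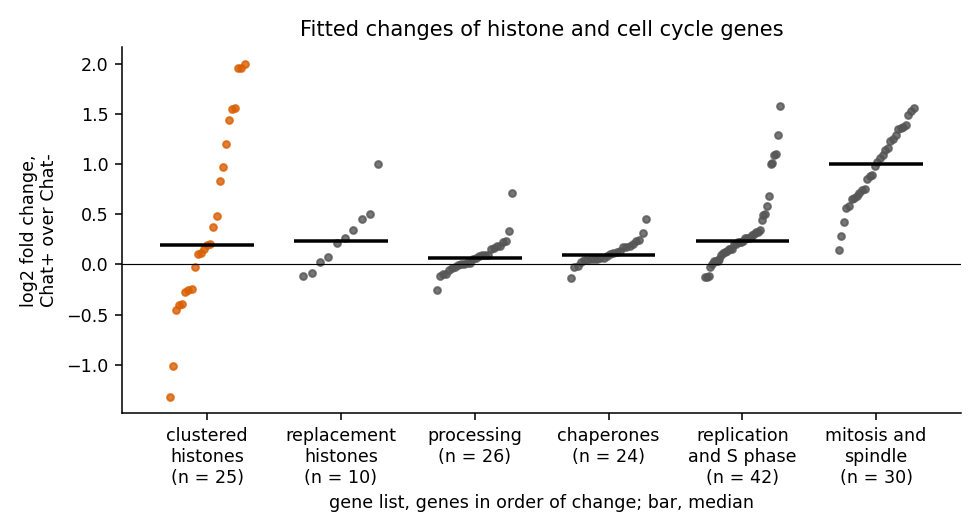
Fitted log2 fold change of Chat+ over Chat- (y axis) for each gene of 6 lists (x axis), in order of change within a list, with a bar at the list's median. The clustered histone genes spread on both sides of 0 with a median of 0.19, while the mitosis and spindle genes have a median of 0.998.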

How the data were processed

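Column-purified RNA of sorted cells went into strand-specific libraries, per the labels' protocols. The submitters' processing notes name cutadapt 2.6, Salmon 0.14.2 and GRCm38.p6. Which annotation, strand setting and CPM tool were used is not given in the sources used here. The authors deposited log2 values: log2(CPM + 0.115), with the CPM summing to 1e+06 per library. Depth was estimated from the step between low values, of which 35.4% to 48.8% (under 3 CPM, within 0.001) were whole reads, so no count model was used.

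The test was limma 3.58.1 (R 4.3.3) with a mean-variance trend on all 14450 genes, fitting only the group, with two-sided p-values and a Benjamini-Hochberg threshold of 0.05. It was tested on simulated data. CPM were computed after removing the offset. Symbols matched for 14374 genes. Shared sequence was counted in 31-base words. Members, gene lists and tests were chosen with earlier results of these data known. Values in every library are given for the member with the highest mean and the one with the smallest p in each class. Up to 6 genes with the smallest p, and the highest, could be named from other lists, and Hist1h2ao, Hist1h2bq's neighbour, and H3f3b, Cenpa and H2afj were added after their values were seen. Tables were made in Python 3.11.15.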

Additional observations from a re-analysis of the deposited data

Results flagged for a closer look

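Of 32 groups of 5 values examined (10 genes and 6 sums in each of the 2 sorted groups), 2 held a library whose distance from its neighbour exceeded the Dixon limit of 0.71 of the group's range, and chance gives about 1 in 20 such groups. In Hist1h1e, Chat+ replicate 5 had 3.1 CPM, against 0.68 to 1.36 CPM in the other Chat+ libraries. In Hist1h2ao, Chat- replicate 1 was listed at 0 CPM, against 14.3 to 17.8 CPM in the other Chat- libraries.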

How the results depend on the processing

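No clustered histone gene passed under any of the 16 alternatives run, and the smallest adjusted p of a member was 0.21, with library quality weights. The number of genes passing over all genes was 1, and it was 3 without the mean-variance trend, 105 with library quality weights, 6 with the replicate number as a block (replicate block) and 1 to 6 with one library left out. The replicate block passed 0 clustered histone genes and changed no call among them. Pairing was examined on each library's deviations from its group mean, over genes with a mean of at least 1 CPM. These deviations correlated at -0.21 to 0.27 between same-numbered libraries, and 3 of 5 Chat+ libraries matched best with their own number. These values do not settle whether the numbers mark pairs. The median change of the members was 0.03 to 0.34 with one library left out. The difference in summed level was 17.1 to 30.6 CPM with one library left out, 5.29 CPM over members sharing under 50% of their words, and 5.96 CPM without Hist1h2aj and Hist1h2ao, an alternative chosen after seeing the data; here fewer genes are summed. Hist1h1c turned to -0.0201 with library quality weights and ranged from -0.13 to 0.34 with one library left out, and Hist3h2a ranged from -0.098 to 0.0267; the cause was not tested. Members under 2 CPM had a median SE of 0.89 on the log2 scale, against 0.25 for those of at least 10 CPM; what sets that spread was not tested.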
